A study of Mus musculus with 8 samples.

Results

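The genes described here encode the subunits of the mitochondrial respiratory chain (complexes I to IV) and of the ATP synthase (complex V). They were taken as the protein-coding genes whose mouse symbol starts with Nduf (a, b, c, s or v and a digit), Uqcr, Cox (4 to 8) or Atp5, or is Cyc1 or a letter form of Sdh, plus the protein genes of mitochondrial DNA (mt-Nd, mt-Co, mt-Cytb and mt-Atp). This symbol rule found 99 of the 31053 genes in the count tables, 86 nuclear and 13 mitochondrially encoded. Complex I had 42 members (35 nuclear and 7 mitochondrially encoded), complex II 4, complex III 10, complex IV 23 and complex V 20. Ndufa4 and Ndufa4l2, named after complex I, were counted with complex IV, where the Ndufa4 protein is now placed. The symbol rule leaves out Ndufab1, the mitochondrial acyl carrier protein, and takes in Atp5s, a coupling factor and not a subunit. Atp5o stood under 2 Ensembl identifiers, and no read was counted on 1 of them.

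RNA was measured in fibro/adipogenic progenitors (FAPs), the stromal cells of skeletal muscle that can become adipocytes or fibroblasts. They came from hind limb muscles of 45-day-old mice of the dystrophic strain C57BL/10ScSn-Dmdmdx/J, so that both groups carry the mdx allele and no wild type cells enter. Cells negative for CD45, CD31 and ITGA7 and positive for SCA-1 were sorted by high or low SCA-1, grown for 5 days in growth medium and then lysed, so that the RNA is that of cells after culture, which gave 4 libraries each of SCA1-High-FAPs (high SCA-1) and of SCA1-Low-FAPs (low SCA-1). Both states came from the same 4 mice, and the labels do not say whether equal replicate numbers are the same mouse.

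Electrons from NADH enter the respiratory chain at complex I and those from succinate at complex II, and pass by ubiquinone to complex III and by cytochrome c to complex IV, where oxygen is reduced. Complexes I, III and IV pump protons, and the ATP synthase uses the gradient to make ATP. Most subunits are encoded in the nucleus and imported, while mitochondrial DNA encodes core subunits of every complex except complex II. In FAPs and adipocytes the balance between oxidative and glycolytic metabolism changes with proliferation and with adipogenesis.

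Between 1880561 and 3985656 reads were counted on genes per library. The FAP marker Pdgfra was present in all libraries (221 ± 51.9 CPM, that is reads per 1000000 reads on genes, in the SCA1-High-FAPs libraries and 167 ± 14.1 CPM in SCA1-Low-FAPs, SD, n = 4 each), and so was Col1a1. Of the 6 FAP markers, all tested, 3 were called and in opposite directions. Dcn, the proteoglycan decorin, was lower in SCA1-Low-FAPs (log2 fold change -2.08, SE 0.39, edgeR adjusted p = 0.0167) and Thy1 was higher (0.67, SE 0.15, edgeR adjusted p = 0.0105). Ly6a, the gene of SCA-1, ran against the labels in these cultured cells. It was higher in SCA1-Low-FAPs (1082 ± 58.2 CPM) than in SCA1-High-FAPs (707 ± 183 CPM, SD, n = 4 each), with a log2 fold change of 0.61 (SE 0.17, edgeR adjusted p = 0.0341). Whether any library carries the wrong label was not tested, and every direction given here is that of the labels. Of 8 muscle genes, 6 (Pax7, Myf5, Myod1, Myog, Ckm and Myh3) had no read in any library, and the 4 endothelial markers summed to at most 6.50 CPM. Summed over 10 adipocyte markers, the level was 1239 to 7022 CPM in the SCA1-High-FAPs libraries and 142 to 686 CPM in SCA1-Low-FAPs, with no marker at 0 in all libraries, and 6 of 9 tested markers were called lower in SCA1-Low-FAPs. Over 8 cell cycle genes it was 598 to 822 CPM in the SCA1-High-FAPs libraries and 1154 to 1707 CPM in SCA1-Low-FAPs, and all 8 were called higher in SCA1-Low-FAPs. Leucocyte markers summed to 22.9 to 42.7 and 6.73 to 15.8 CPM, pericyte markers to 4.04 to 18.2 and 8.51 to 34.7 CPM, and brown adipocyte markers to 1.80 to 28.6 and 18.9 to 36.5 CPM, in the high and then the low state. The 8 muscle genes summed to at most 4.21 CPM in the high and at least 5.36 CPM in the low state. Lyz2, a leucocyte marker, was called lower (log2 fold change -1.42) and Cspg4, a pericyte marker, higher (2.40) in SCA1-Low-FAPs. Adgre1 among the leucocyte and Emcn among the endothelial markers had no read. The part of these markers in the values below was not tested.

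The sequences are shown beside 2 results below, the counts of mitochondrially encoded genes and the regulators of the nuclear subunits. No link between them and the sequences was tested. The last stretches of mitochondrially encoded mRNAs are shown because the libraries read the 3′ ends of mRNA and a read that aligns equally well to more than 1 place was not given to a gene. Each is 75 bases from the 3′ end of the GENCODE M21 transcript (build GRCm38, 5′ to 3′). The nearest copy follows where it differs, with differing bases in capitals. Copies were searched among the GENCODE M21 transcripts of other genes only, so a copy that is not annotated would be missed.
mt-Co3 (chrM:9315-9389, plus strand): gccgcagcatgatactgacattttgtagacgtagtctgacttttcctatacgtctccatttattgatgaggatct
mt-Co1 (chrM:6798-6872, plus strand): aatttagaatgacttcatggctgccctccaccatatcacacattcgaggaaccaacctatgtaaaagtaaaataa
mt-Nd2 (chrM:4872-4946, plus strand): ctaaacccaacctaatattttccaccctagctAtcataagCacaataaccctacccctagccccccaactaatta
Gm13339 (copy of mt-Nd2 within chr2:22590024-22590533, minus strand): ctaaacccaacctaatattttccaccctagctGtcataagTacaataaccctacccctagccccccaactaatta
mt-Nd4 (chrM:11462-11536, plus strand): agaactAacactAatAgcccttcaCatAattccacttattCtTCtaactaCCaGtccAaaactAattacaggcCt
Gm37224 (copy of mt-Nd4 within chr1:34752775-34752922, plus strand): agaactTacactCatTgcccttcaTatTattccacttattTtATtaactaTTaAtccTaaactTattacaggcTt
The stretch of mt-Co3 has 0 differences from the pseudogene Gm28437 (chr1:24613189-24613971, minus strand), and that of mt-Co1 has 0 differences from Gm29216 (chr1:24615706-24616197, minus strand). mt-Nd2 differs from its nearest copy at 2 of 75 bases and mt-Nd4 at 14 of 75. Of the 12 mitochondrially encoded genes with such a copy, 6 (mt-Co1, mt-Co2, mt-Co3, mt-Atp6, mt-Nd3 and mt-Nd4l) had 0 differences, all from pseudogenes between 24612407 and 24616197 on chromosome 1. None of the 12 copies has a row of its own in the count tables. mt-Nd5 is not among the 12, although its 3′ end was 90.7% identical to the pseudogene Gm11407 over 281 bases.

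The promoters of 2 nuclear subunits are shown with the letters of 2 factors that are known to drive respiratory chain genes, NRF1 (GCGCATGC) and the ETS family, which includes GABP (CCGGAAG), searched on both strands. They are RefSeq sequences on build GRCm38.p6, from 250 bases before to 50 bases after the annotated start, with matches in capitals. Ndufa6 was the member with the smallest p-value below (chosen after its values were seen), and Cox6a1 the nuclear complex IV gene with the most reads.
Ndufa6 (chr15:82354242-82354541, minus strand): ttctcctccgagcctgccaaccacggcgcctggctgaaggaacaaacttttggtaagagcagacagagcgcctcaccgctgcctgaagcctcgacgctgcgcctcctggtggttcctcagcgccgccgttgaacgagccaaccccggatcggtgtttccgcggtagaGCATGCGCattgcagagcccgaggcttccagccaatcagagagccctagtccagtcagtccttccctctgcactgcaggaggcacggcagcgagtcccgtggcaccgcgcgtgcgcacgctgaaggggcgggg
Cox6a1 (chr5:115348909-115349208, minus strand): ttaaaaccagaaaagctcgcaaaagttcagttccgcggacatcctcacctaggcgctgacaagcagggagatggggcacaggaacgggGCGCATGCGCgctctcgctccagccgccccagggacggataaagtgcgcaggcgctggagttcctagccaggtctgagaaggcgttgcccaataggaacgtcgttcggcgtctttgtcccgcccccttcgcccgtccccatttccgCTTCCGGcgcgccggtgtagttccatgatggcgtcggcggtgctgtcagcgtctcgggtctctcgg
Ndufa6 holds 1 match to the NRF1 letters. In Cox6a1 the NRF1 letters match once on each strand, at overlapping positions, and the ETS letters match at 1 place. Of the 85 nuclear member symbols, 68 (80.0%) had a promoter in the RefSeq table. The NRF1 letters were in 10 of these 68 promoters (14.7%), against 3.93% of 17491 genes with a promoter. The ETS letters were in 16 (23.5%, against 12.9%), the YY1 letters AAGATGGCG in 7 (10.3%, against 2.14%), the ERR letters TCAAGGTCA in 2 (2.94%, against 0.377%) and the TATA box letters TATAAA in 7 (10.3%, against 14.8%). With the bases after the start left out, the YY1 letters were in 1 of 68 promoters (1.47%, against 0.840%), while the NRF1 letters were in 8 (11.8%, against 3.32%). A match describes the letters only.

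To ask whether the respiratory chain differs between the FAP states, each gene was compared between SCA1-Low-FAPs and SCA1-High-FAPs in 1 edgeR quasi-likelihood fit over all genes. Log2 fold changes set SCA1-Low-FAPs, the control in the series text, over SCA1-High-FAPs, and a negative value means a lower level in SCA1-Low-FAPs. Calls needed both an adjusted p-value below 0.05 and a fold change of more than 0.5 on the log2 scale, up or down. The filter on low counts kept 85 members, 76 nuclear and 9 mitochondrially encoded, among 10181 genes. No subunit was called, while 7.68% of all tested genes were called, 4.36% lower and 3.32% higher in SCA1-Low-FAPs. The count was also 0 with DESeq2, which called 6.74% of its genes, and with replicate numbers entered as blocks in edgeR, which called 6.85%. In bulk RNA, fewer cells that express a gene and less of its RNA per cell cannot be told apart.

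At an unadjusted p-value under 0.05, 6 of the 85 members passed, all lower in SCA1-Low-FAPs, where 10.8% of all tested genes passed, and 0 passed in the other direction, where 10.4% of all genes did. They were Ndufa6, Ndufc2, Ndufs7, Sdha, mt-Co1 and mt-Nd5, and are named after their values were seen. The levels of the SCA1-High-FAPs and SCA1-Low-FAPs libraries did not overlap for 6 nuclear members, or 7.06% of the members tested, against 14.1% of all tested genes. These were Ndufa5, Ndufa6, Ndufa13, Ndufc2, Ndufs1 and Sdha. The 95% interval of the log2 fold change lay within 0.5 of 0 for 43 members (50.6%) and within 1 of 0 for 72 (84.7%), against 9.58% and 52.9% of all tested genes. The median SE was 0.16 for the members and 0.28 for all tested genes. In 1 of the 8 fits that leave out a library, without SCA1-Low-FAPs replicate 3, the subunits Ndufa6 (log2 fold change -0.62, edgeR adjusted p = 0.0310) and mt-Co1 (log2 fold change -0.71, edgeR adjusted p = 0.00992) were called.

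**Figure D1:**
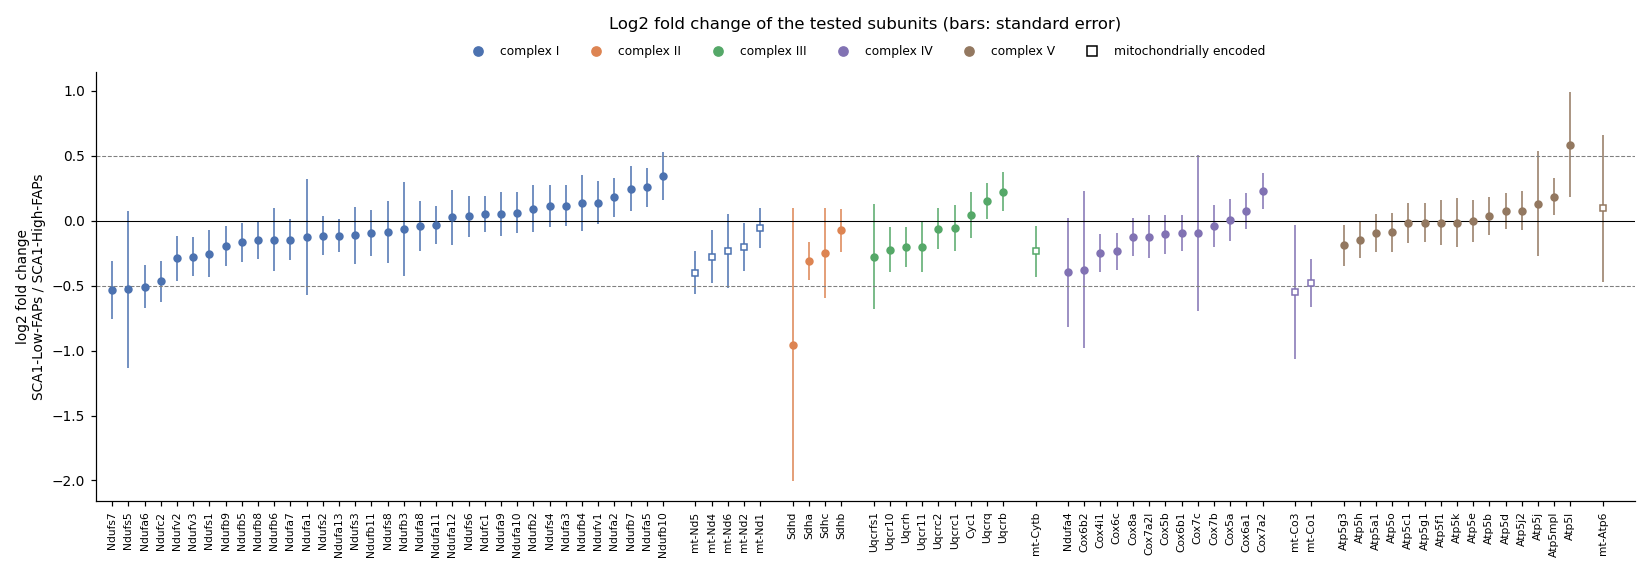
Log2 fold change (vertical axis, SCA1-Low-FAPs over SCA1-High-FAPs) of the 85 tested subunit genes, ordered by complex and by value, with filled circles for nuclear and open squares for mitochondrially encoded genes. Bars are standard errors and dashed lines mark 0.5 in each direction. Most points lie between the dashed lines, the median of the 76 nuclear points is -0.08, and the widest bars belong to Sdhd, Ndufs5, Cox7c and Cox6b2.

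Complex I has a core of catalytic subunits surrounded by accessory ones. Of its 35 nuclear members, all tested, 21 had a negative and 14 a positive log2 fold change, with a median of -0.09. The 28 accessory subunits had a median of -0.04 and the 7 core subunits one of -0.11. The summed level of the 35 genes was 4816 to 5139 CPM in the SCA1-High-FAPs libraries and 4643 to 5067 CPM in SCA1-Low-FAPs, and these ranges overlap.

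Ndufa6, an accessory subunit of complex I, measured 211, 155, 158 and 180 CPM in SCA1-High-FAPs replicates 1 to 4 and 104, 131, 149 and 112 CPM in SCA1-Low-FAPs. All SCA1-High-FAPs libraries lay above all SCA1-Low-FAPs libraries, with a log2 fold change of -0.51 (SE 0.17, 95% interval -0.86 to -0.16, edgeR adjusted p = 0.0685). The accessory membrane arm subunit Ndufc2 had 183, 149, 143 and 147 CPM in the SCA1-High-FAPs libraries and 94.2, 116, 130 and 110 CPM in SCA1-Low-FAPs. Again the groups did not overlap, and the log2 fold change was -0.47 (SE 0.16, edgeR adjusted p = 0.0824). Ndufs7, the core subunit that carries an iron-sulphur cluster next to the ubiquinone site, had 101, 72.3, 126 and 62.7 CPM against 64.4, 56.3, 49.8 and 78.8 CPM. Its groups overlapped, and the log2 fold change of -0.53 had a larger SE of 0.23 (edgeR adjusted p = 0.176). Ndufs1, the largest core subunit, ranged from 65.1 to 76.7 CPM in the SCA1-High-FAPs libraries and from 50.2 to 65.0 CPM in SCA1-Low-FAPs, with a log2 fold change of -0.25 (SE 0.18, edgeR adjusted p = 0.461).

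Among positive values in complex I, Ndufb10 was at 84.2 ± 13.1 CPM in the SCA1-High-FAPs libraries and 107 ± 23.1 CPM in SCA1-Low-FAPs (SD, n = 4 each), with a log2 fold change of 0.35 (SE 0.19). For Ndufa5 the levels were 179 ± 15.7 and 214 ± 27.8 CPM (SD, n = 4 each), with a log2 fold change of 0.26 (SE 0.15). Neither was called (edgeR adjusted p = 0.301 for Ndufb10 and 0.342 for Ndufa5). Ndufa13, an accessory subunit also known as GRIM-19, had the smallest spread within groups of the tested nuclear members. It measured 288, 275, 280 and 275 CPM in the SCA1-High-FAPs libraries and 258, 256, 267 and 253 CPM in SCA1-Low-FAPs, which gives a log2 fold change of -0.11 (SE 0.13, edgeR adjusted p = 0.681). Here the groups did not overlap although the difference was small, and its spread within groups, an SD of 0.0322 on the log2(CPM + 1) scale, compares with a median of 0.375 over all tested genes. Ndufa2 had the most and Ndufs5 the fewest reads among the complex I nuclear genes, at 357 ± 57.9 and 405 ± 34.7 CPM (SD, n = 4 each) for Ndufa2. Ndufs5 had between 2 and 61 reads per library and a log2 fold change of -0.53 (SE 0.60), and the 3′ end of its transcript is identical to BC002163 over 186 bases.

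Complex II, succinate dehydrogenase, is built from 4 nuclear subunits and also serves the tricarboxylic acid cycle. All 4 had a negative log2 fold change, with a median of -0.28, and none was called. This shared sign depended on single libraries, since Sdhb was at 0.08 without SCA1-High-FAPs replicate 3, and without SCA1-High-FAPs replicate 1 Sdhd was at 0.015 and Sdhc at -0.03, while Sdha stayed between -0.36 and -0.28. Their summed level was 466 to 529 CPM in the SCA1-High-FAPs libraries and 387 to 454 CPM in SCA1-Low-FAPs, and these ranges did not overlap. Sdha, the flavoprotein that oxidises succinate, measured 168, 177, 179 and 151 CPM in the SCA1-High-FAPs libraries and 146, 129, 142 and 129 CPM in SCA1-Low-FAPs. The groups did not overlap, and the log2 fold change was -0.31 (SE 0.14, edgeR adjusted p = 0.220). Sdhb, the iron-sulphur subunit, was at 202 ± 42.3 and 192 ± 21.5 CPM (SD, n = 4 each), a log2 fold change of -0.07 (SE 0.16). Sdhc, a membrane anchor, was at 102 ± 43.1 and 85.97 ± 30.8 CPM (SD, n = 4 each), a log2 fold change of -0.25 (SE 0.35). Sdhd, the other membrane anchor, had 89, 1, 11 and 55 reads in SCA1-High-FAPs and 4, 26, 47 and 14 reads in SCA1-Low-FAPs. The spread of Sdhd within groups exceeded the difference between them, and its log2 fold change of -0.95 (SE 1.05, edgeR adjusted p = 0.682) has an interval from -3.38 to 1.47.

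Complex III passes electrons from ubiquinol to cytochrome c. Of its 9 nuclear members, all tested, 6 had a negative and 3 a positive log2 fold change, with a median of -0.06. Uqcrq, a small accessory subunit, had the most reads, at 356 ± 42.1 and 396 ± 23.7 CPM (SD, n = 4 each, log2 fold change 0.15, SE 0.14), and Uqcrh, the hinge subunit, came next. Its level was 403 ± 78.5 CPM in the SCA1-High-FAPs libraries and 350 ± 34.5 CPM in SCA1-Low-FAPs (SD, n = 4 each), giving a log2 fold change of -0.20 (SE 0.16). Uqcrfs1, the Rieske iron-sulphur protein, had the fewest, with 118, 87.6, 25.7 and 84.9 CPM against 74.99, 47.7, 92.4 and 45.7 CPM. The lowest and the highest library of Uqcrfs1 both belong to SCA1-High-FAPs. The summed level of complex III was 1482 to 1785 CPM in the SCA1-High-FAPs libraries and 1507 to 1741 CPM in SCA1-Low-FAPs.

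Complex IV, cytochrome c oxidase, has nuclear subunits that exist as isoforms of different tissues. Of its 20 nuclear members 13 were tested, 10 with a negative and 3 with a positive log2 fold change, with a median of -0.10. The isoforms known from most tissues took most of the reads, and the other isoforms had few. Cox4i1 was at 406 ± 64.6 CPM in the SCA1-High-FAPs libraries and 342 ± 28.8 CPM in SCA1-Low-FAPs (SD, n = 4 each), with a log2 fold change of -0.25 (SE 0.15, edgeR adjusted p = 0.350). Cox4i2, the isoform that responds to low oxygen, had 0 to 5 reads per library. Cox6a1 was at 569 ± 72.5 and 600 ± 45.2 CPM (SD, n = 4 each, log2 fold change 0.08, SE 0.14), while the heart and muscle isoform Cox6a2 had 2, 11, 2 and 1 reads in SCA1-High-FAPs and 27, 8, 14 and 10 reads in SCA1-Low-FAPs. The groups overlapped through SCA1-High-FAPs replicate 2. Cox6a2 did not pass the filter for edgeR, and DESeq2, which kept it, gave a log2 fold change of 1.79 (DESeq2 adjusted p = 0.220). Cox7a2 was at 297 ± 10.6 and 349 ± 42.3 CPM (SD, n = 4 each, log2 fold change 0.23, SE 0.14), while its muscle isoform Cox7a1 had 0 to 7 reads. Cox7a2l, which takes part in supercomplexes, was at 226 ± 52.6 and 208 ± 5.43 CPM (SD, n = 4 each, log2 fold change -0.12, SE 0.16). Cox8a was at 341 ± 24.1 and 313 ± 44.3 CPM (SD, n = 4 each, log2 fold change -0.12, SE 0.14), while Cox8b had 0 to 2 reads and Cox8c had 0 in all libraries.

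Cox6b1 was at 406 ± 36.2 and 380 ± 43.3 CPM (SD, n = 4 each, log2 fold change -0.10, SE 0.14), and its testis isoform Cox6b2 had 7 to 30 reads and a log2 fold change of -0.38 (SE 0.61). Cox7b was at 185 ± 31.0 and 180 ± 22.3 CPM (SD, n = 4 each, log2 fold change -0.04, SE 0.16), and Cox7b2 had 6 reads in SCA1-Low-FAPs replicate 2 and 0 elsewhere. Ndufa4 was at 103 ± 48.6 and 78.5 ± 37.7 CPM (SD, n = 4 each, log2 fold change -0.40, SE 0.42), and its relative Ndufa4l2, known from low oxygen, had 0 to 11 reads. A library with 0 reads on a gene allows a level of up to 0.753 to 1.595 CPM (3 reads of its total, counting error only). For the isoforms with at most 11 reads in every library, differences were not detectable at this depth.

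The ATP synthase has a catalytic head in the matrix and a membrane part with a rotor ring, and most of its fold changes lay close to 0. Of its 18 nuclear members 15 were tested, 9 with a negative and 6 with a positive log2 fold change, with a median of -0.01, and the 95% interval lay within 0.5 of 0 for 12 of them. Atp5a1 and Atp5b, which form the catalytic head, had log2 fold changes of -0.09 (SE 0.14) and 0.04 (SE 0.15). Atp5e, another subunit of the matrix part, was at 239 ± 36.8 and 239 ± 41.0 CPM (SD, n = 4 each). The c subunit of the rotor ring comes from 3 genes that encode the same mature protein. Atp5g3 had the most reads of complex V, with 778 ± 159 CPM in the SCA1-High-FAPs libraries and 684 ± 78.1 CPM in SCA1-Low-FAPs (SD, n = 4 each), giving a log2 fold change of -0.19 (SE 0.16). Atp5g1 was at 175 ± 20.6 and 174 ± 18.5 CPM (SD, n = 4 each, log2 fold change -0.02, SE 0.15). Atp5g2 had 14, 7, 12 and 21 reads in SCA1-High-FAPs and 5, 4, 7 and 7 in SCA1-Low-FAPs and did not pass the filter for edgeR. Its groups did not overlap in CPM, and DESeq2, which kept it, gave a log2 fold change of -1.39 (DESeq2 adjusted p = 0.224). The 3′ end of Atp5g2 is identical to Gm10175 over 296 bases. Atp5l, subunit g, had the largest positive value at 0.59 (SE 0.41, edgeR adjusted p = 0.450) with 12 to 39 reads per library, and 12 other genes hold a copy of its 3′ end that is at least 95% identical.

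The 76 nuclear members together had a median log2 fold change of -0.08, with 50 negative and 26 positive, beside a median of 0.00 over all tested genes, of which 49.97% were negative. The nuclear median was -0.01 without SCA1-High-FAPs replicate 1, -0.05 without SCA1-High-FAPs replicate 4 and -0.03 without SCA1-Low-FAPs replicate 4. They took 1.69, 1.48, 1.46 and 1.51% of the reads on genes in SCA1-High-FAPs and 1.47, 1.47, 1.52 and 1.33% in SCA1-Low-FAPs. The groups overlap, and the highest value is that of SCA1-High-FAPs replicate 1.

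The 13 mitochondrially encoded genes took more of each library. Their share was 2.70, 2.16, 2.74 and 2.50% of the reads on genes in SCA1-High-FAPs (2.53 ± 0.264%, SD, n = 4) and 1.87, 1.77, 2.32 and 2.48% in SCA1-Low-FAPs (2.11 ± 0.345%, SD, n = 4). The lowest SCA1-High-FAPs library lies below the upper 2 SCA1-Low-FAPs libraries, and the difference of -0.42 percentage points between the means compares with a pooled SD of 0.307 points. With each library left out in turn the difference lay between -0.54 and -0.30 points. Relative to the nuclear members, the mitochondrially encoded reads were 1.46 to 1.88 times as many in SCA1-High-FAPs and 1.21 to 1.87 times in SCA1-Low-FAPs. Over all libraries, the most of these reads fell on mt-Nd4 (186415), mt-Nd2 (118105), mt-Cytb (74942) and mt-Nd1 (65415). The genes from mt-Co2 to mt-Nd4l had at most 30 reads per library, so the share says little about them.

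**Figure D2:**
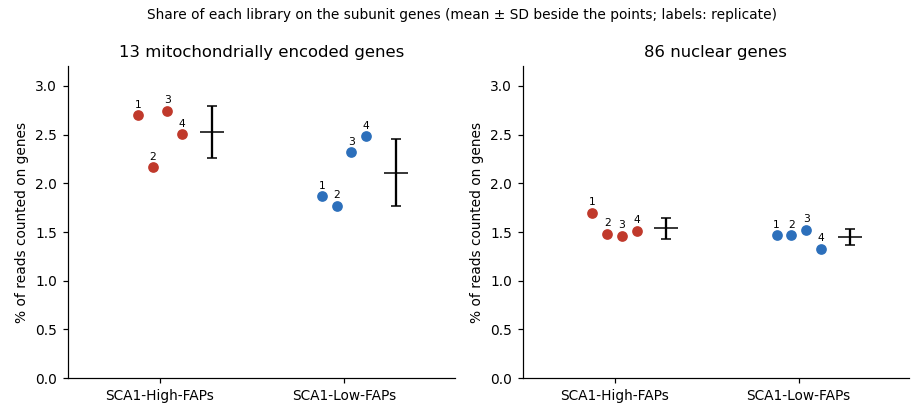
Percent of the reads counted on genes (vertical axes) that fell on the mitochondrially encoded (left) and nuclear (right) subunit genes, with 1 point per library, the replicate number above it, and the mean ± SD of 4 libraries beside the points. The mitochondrially encoded share runs from 2.16 to 2.74% in SCA1-High-FAPs and from 1.77 to 2.48% in SCA1-Low-FAPs, and the groups overlap in both panels.

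Of the 9 mitochondrially encoded genes tested, 8 had a negative and 1 a positive log2 fold change, with a median of -0.24. The median was -0.40 without SCA1-Low-FAPs replicate 3 and -0.39 without SCA1-Low-FAPs replicate 4. Those encoded on the same strand of mitochondrial DNA are cut from a common precursor transcript, so that they are not independent. The sign of mt-Nd1 turned without SCA1-High-FAPs replicate 1 or SCA1-Low-FAPs replicate 1 (0.08 and 0.00), and that of mt-Atp6 without SCA1-High-FAPs replicate 1 or 3 or SCA1-Low-FAPs replicate 1 (-0.01, -0.05 and -0.26). mt-Co1, the catalytic subunit of complex IV, measured 1023, 723, 784 and 883 CPM in the SCA1-High-FAPs libraries and 465, 593, 873 and 524 CPM in SCA1-Low-FAPs. SCA1-Low-FAPs replicate 3 lies among the SCA1-High-FAPs libraries, and the log2 fold change was -0.48 (SE 0.18, edgeR adjusted p = 0.131), or -0.71 without that library. mt-Nd5, a proton-pumping subunit of complex I, measured 1074, 976, 1423 and 1114 CPM against 704, 792, 869 and 1113 CPM. Its log2 fold change was -0.40 (SE 0.17, edgeR adjusted p = 0.162), and SCA1-Low-FAPs replicate 4 overlaps SCA1-High-FAPs.

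The other complex I genes of mitochondrial DNA had smaller differences. mt-Nd4 was at 9680 ± 1964 CPM in the SCA1-High-FAPs libraries and 7999 ± 2362 CPM in SCA1-Low-FAPs (SD, n = 4 each), giving a log2 fold change of -0.28 (SE 0.20). mt-Nd2 was at 6075 ± 1356 and 5296 ± 1263 CPM (SD, n = 4 each, log2 fold change -0.20, SE 0.19). mt-Nd1 was at 3268 ± 598 and 3149 ± 251 CPM (SD, n = 4 each, log2 fold change -0.06, SE 0.15). mt-Nd6, the only member encoded on the other strand of mitochondrial DNA, had 34 to 77 reads per library and a log2 fold change of -0.23 (SE 0.29). The adjusted p-values of these 4 genes ranged from 0.478 for mt-Nd4 to 0.891 for mt-Nd1 in edgeR.

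mt-Cytb, the mitochondrially encoded core of complex III, measured 5039, 3308, 2818 and 4668 CPM in the SCA1-High-FAPs libraries and 2817, 3251, 4441 and 2956 CPM in SCA1-Low-FAPs (difference on the log2 scale -0.24, SE 0.20). mt-Nd4 in the same libraries measured 7997, 8428, 12344 and 9949 CPM and 7212, 5356, 8437 and 10989 CPM. The order of the libraries differs between these genes, since SCA1-High-FAPs replicate 3 is the highest of its group for mt-Nd4 and the lowest for mt-Cytb.

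**Figure D3:**
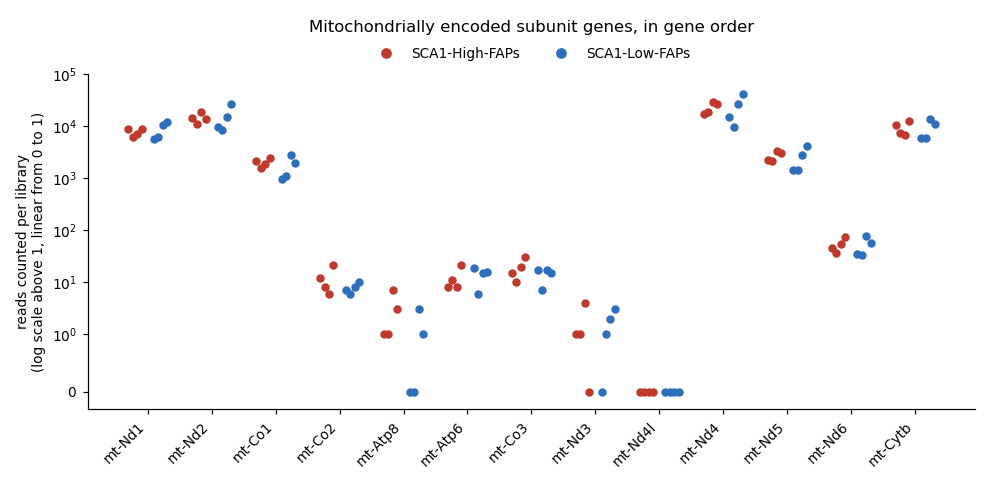
Reads counted per library (vertical axis, log scale above 1 and linear from 0 to 1) on the 13 mitochondrially encoded genes in the order in which they lie on mitochondrial DNA, red for SCA1-High-FAPs and blue for SCA1-Low-FAPs. The run of 6 genes from mt-Co2 to mt-Nd4l has at most 30 reads per library, between genes with 967 reads or more, in both groups.

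The 6 neighbouring genes from mt-Co2 to mt-Nd4l were almost without reads. mt-Co3 had 7 to 30 reads per library, mt-Atp6 6 to 21, mt-Co2 6 to 21, mt-Atp8 0 to 7, mt-Nd3 0 to 4, and mt-Nd4l had 0 in all libraries. On either side of them, mt-Co1 had 967 to 2767 reads and mt-Nd4 9889 to 41848. mt-Co3, mt-Atp6, mt-Co2, mt-Nd3 and mt-Nd4l are those whose 3′ stretches match chromosome 1 without a difference, as shown above for mt-Co3, and the part of these copies in the low counts was not tested. mt-Co1 also has an identical copy of its 3′ stretch, but that copy (chr1:24615706-24616197) is shorter than the gene (chrM:5328-6872). The copies of mt-Co2, mt-Co3, mt-Atp6, mt-Nd3 and mt-Nd4l are about as long as these genes. mt-Atp8 differs from its nearest annotated copy at 10 of 75 bases and overlaps mt-Atp6 on the same strand. On mitochondrial DNA it lies between mt-Co2 and mt-Atp6, whose copies are neighbours on chromosome 1. Only annotated transcripts were searched, so whether mt-Atp8 has a copy between theirs was not tested. Of the 6 genes only mt-Co3 and mt-Atp6 were tested, with log2 fold changes of -0.55 (SE 0.52) and 0.10 (SE 0.57), and levels of these 6 genes cannot be read from the counts.

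The spread between replicates differed strongly between the nuclear members. The 10 tested members with the largest spread within groups were Sdhd, Ndufs5, Cox7c, Ndufa1, Uqcrfs1, Atp5j, Cox6b2, Ndufa4, Ndufb3 and Sdhc, chosen by that value and therefore only described. Their SDs on the log2(CPM + 1) scale ran from 0.634 to 1.75, and those of the other 66 from 0.0322 to 0.464, beside a median of 0.375 over all tested genes. Cox7c, a small complex IV subunit, had 1448, 689, 236 and 1487 reads in SCA1-High-FAPs and 644, 716, 1887 and 890 in SCA1-Low-FAPs, a 6.92-fold range in CPM. Cox6c, another complex IV subunit, ranged 1.57-fold, with 542, 592, 733 and 619 CPM in the SCA1-High-FAPs libraries and 484, 466, 595 and 567 CPM in SCA1-Low-FAPs.

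The order of the libraries was largely shared by the variable members. Among the SCA1-High-FAPs libraries, replicate 1 was the highest for 8 of the 10 and replicate 3 the lowest for 7. Among the SCA1-Low-FAPs libraries, replicate 3 was the highest for 8 and replicate 4 the lowest for 8. All complexes are represented, since Ndufa1 and Ndufb3 are in complex I, Sdhc in II, Uqcrfs1 in III, Cox7c in IV and Atp5j in V. The 18 tested nuclear members with such a copy of their 3′ end had a median SD of 0.202, and the 58 without one a median of 0.194. The log2 fold changes of the 10 variable members carry SEs of 0.35 to 1.05. These values bound the difference between the states less closely than those of most other members.

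**Figure D4:**
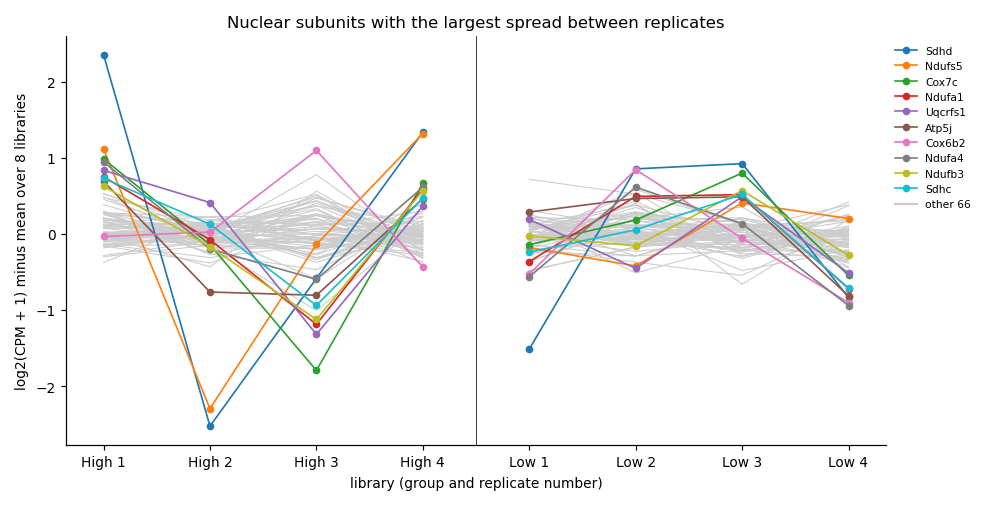
Level of each tested nuclear subunit in the 8 libraries as log2(CPM + 1) minus its mean over the libraries (vertical axis), with the 10 members of largest spread in colour and the other 66 in grey. Lines join libraries of 1 group for legibility only. Most coloured lines are high in SCA1-High-FAPs replicate 1 and SCA1-Low-FAPs replicate 3 and low in SCA1-High-FAPs replicate 3 and SCA1-Low-FAPs replicate 4.

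Other genes of the pathway were taken from 4 lists: 45 assembly factors, 20 carriers and transport proteins, 23 genes of mitochondrial biogenesis and 78 mitochondrial ribosomal proteins. Of the 166 genes 151 were tested and 4 were called, 3 lower and 1 higher in SCA1-Low-FAPs, against 7.68% of all tested genes. Of 43 tested assembly factors 0 were called by edgeR, with 4 at an unadjusted p-value under 0.05 and a median log2 fold change of -0.04. Of 74 tested mitochondrial ribosomal genes 0 were called, with 7 at an unadjusted p-value under 0.05, 55 positive and 19 negative values and a median of 0.15. Among all tested genes, 21.3% had an unadjusted edgeR p-value under 0.05 and 49.97% a negative value. The summed level of the mitochondrial ribosomal genes was 3493 to 3875 CPM in the SCA1-High-FAPs libraries and 3869 to 4340 CPM in SCA1-Low-FAPs. DESeq2 and edgeR with the replicate block also called only the same 4 genes of the 166.

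The called genes were Ppargc1a, Pink1, Chchd10 and Higd1a. Ppargc1a encodes PGC-1 alpha, the coactivator that drives transcription of respiratory chain genes through NRF1, GABP and ERR alpha. It measured 21.04, 19.8, 31.1 and 16.4 CPM in the SCA1-High-FAPs libraries and 1.44, 3.25, 13.6 and 5.51 CPM in SCA1-Low-FAPs. The groups did not overlap, and the log2 fold change was -1.82 (SE 0.49, edgeR adjusted p = 0.0297). The call was lost in 6 of the 8 fits that leave out a library, those without SCA1-High-FAPs replicate 1, 2 or 3 or SCA1-Low-FAPs replicate 1, 2 or 4 (edgeR adjusted p = 0.0524 to 0.0922). Ppargc1b, its relative, had 19.6, 5.84, 14.9 and 5.10 CPM against 6.73, 4.33, 1.58 and 2.63 CPM, with overlapping groups and a log2 fold change of -1.61 (SE 0.60, edgeR adjusted p = 0.115).

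None of the DNA-binding partners was called. Nrf1 was at 22.9 ± 5.03 CPM in the SCA1-High-FAPs libraries and 20.7 ± 7.07 CPM in SCA1-Low-FAPs (SD, n = 4 each, fold change on the log2 scale -0.14, SE 0.30). Gabpa was at 32.7 ± 5.75 and 27.5 ± 3.805 CPM (SD, n = 4 each, log2 fold change -0.26, SE 0.24), and Esrra at 7.62 ± 3.62 and 8.65 ± 2.47 CPM (SD, n = 4 each, log2 fold change 0.18, SE 0.49). Tfam, a transcription factor of mitochondrial DNA that also packages it, was at 33.9 ± 9.40 and 39.6 ± 4.62 CPM (SD, n = 4 each, log2 fold change 0.22, SE 0.25). Their adjusted p-values lay between 0.606 for Gabpa and 0.892 for Esrra in edgeR. Esrrb and Esrrg had no reads.

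Pink1, the kinase that marks damaged mitochondria, measured 62.2, 97.1, 95.4 and 84.9 CPM in the SCA1-High-FAPs libraries and 36.1, 22.2, 55.8 and 35.5 CPM in SCA1-Low-FAPs. The groups did not overlap, the log2 fold change was -1.17 (SE 0.25, edgeR adjusted p = 0.00762), and the call held without each of the 8 libraries. Chchd10, a protein of the intermembrane space, measured 44.0, 10.8, 26.5 and 2.92 CPM against 3.36, 0.542, 5.36 and 2.36 CPM. Its log2 fold change was -2.77 (SE 0.74, edgeR adjusted p = 0.0360), SCA1-High-FAPs replicate 4 lay within the SCA1-Low-FAPs range, and the call was lost without SCA1-High-FAPs replicate 1 or 3 or SCA1-Low-FAPs replicate 1, 2 or 4 (edgeR adjusted p = 0.0696 to 0.139). Higd1a, a small protein of the inner membrane that binds respiratory chain complexes, went the other way, with 39.3, 35.9, 44.4 and 52.9 CPM in the SCA1-High-FAPs libraries and 82.2, 67.2, 67.5 and 92.96 CPM in SCA1-Low-FAPs. The groups did not overlap (log2 fold change 0.84, SE 0.20, edgeR adjusted p = 0.0153), and the call was lost without SCA1-Low-FAPs replicate 1 or 4 (edgeR adjusted p = 0.0518 and 0.0773).

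**Figure D5:**
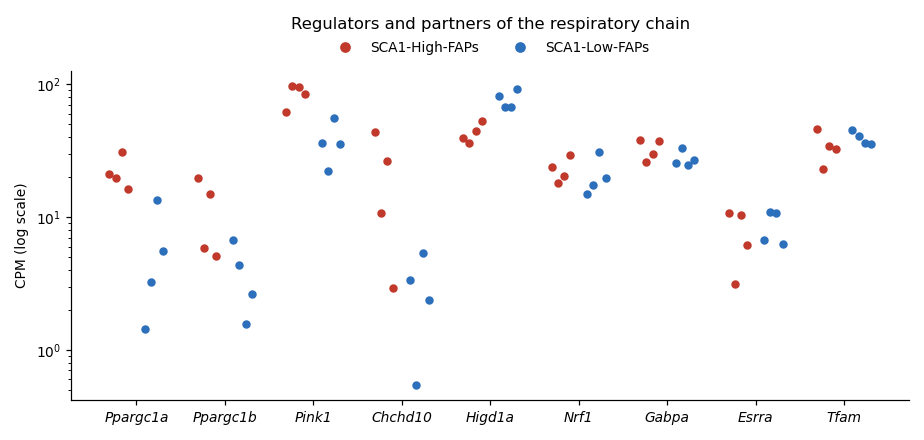
Level in CPM (vertical axis, log scale) of 9 regulators and partners of the respiratory chain in each library, red for SCA1-High-FAPs and blue for SCA1-Low-FAPs. Ppargc1a and Pink1 are lower in all SCA1-Low-FAPs libraries, Higd1a is higher in all of them, and the groups overlap for the others.

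Adipocyte markers moved in the same direction as Ppargc1a, Pink1 and Chchd10. Among them were Adipoq, the adipokine adiponectin, at 312 ± 246 CPM in the SCA1-High-FAPs libraries and 11.7 ± 8.70 CPM in SCA1-Low-FAPs (SD, n = 4 each), and Lipe, hormone-sensitive lipase, at 114 ± 62.6 and 17.8 ± 5.77 CPM (SD, n = 4 each). SCA1-High-FAPs replicate 4, the lowest of its group for Adipoq and Lipe, was also the lowest for Ppargc1a and Chchd10, and for Ppargc1b, which was not called. Pink1 did not share this lowest library, since its lowest SCA1-High-FAPs library was replicate 1 at 62.2 CPM, with replicate 4 at 84.9 CPM. The highest SCA1-High-FAPs library was replicate 3 for Ppargc1a and replicate 1 for Chchd10, so these genes did not share the whole order of libraries. Ucp1, the uncoupling protein of brown adipocytes, had 1 to 3 reads in every library. The part of the adipocyte markers and of the cell cycle genes in these differences was not tested.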

How the data were processed

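The authors made 3′ mRNA libraries (QuantSeq FWD) from total RNA of sorted and cultured FAPs, aligned the reads with STAR to mm10 and counted them per gene with HTSeq, by the submitters' processing notes. The deposited values are raw counts per Ensembl gene, as whole numbers without normalisation, and 31011 of 31053 identifiers were matched to GENCODE M21. Reads that aligned to more than 1 place were tallied apart from genes, at 1487727 to 3606277 per library. The strand setting is not given in the sources used here.

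From these counts, TMM factors and a quasi-likelihood fit without covariates were computed with edgeR 4.0.16 in R 4.3.3, with p-values adjusted by Benjamini-Hochberg over the 10181 genes that passed filterByExpr (minimum count 10, minimum total 15). The study used DESeq2, which is an alternative here (version 1.42.0). CPM are reads per 1000000 reads on genes, scaled by TMM and not divided by gene length, because each read marks a 3′ end. CPM of different genes are therefore not compared as amounts of RNA. The fits were tested on simulated data. Copies of the last 300 bases of each member's transcript were searched among GENCODE M21 transcripts with BLAST+ 2.17.0 (at least 100 bases at 95% identity). Total counts per library limit the precision, and the floor of 3 reads covers counting error only.

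Named genes are all called and all mitochondrially encoded members, the 3 nuclear members with the largest fold change in each direction, the nuclear members with the most and fewest reads per complex, isoforms with their partners, the Sdh genes, and called genes and 6 regulators of the other lists. Other members and the marker genes described in the text were chosen after their values were seen. The members and lists were chosen with earlier results of these data known. Alternatives were other scalings and filters, DESeq2, a replicate block, each library left out, and other thresholds. No test was made over a list, over shares of counts or over promoter letters.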

Additional observations from a re-analysis of the deposited data

Results flagged for a closer look

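In 94 groups of 4 libraries the highest or lowest library was compared with the others by Dixon's ratio, and 5 stood apart, where chance alone gives about 1 in 20 groups. mt-Nd2 was at 7187 CPM in SCA1-Low-FAPs replicate 4, above 4596 to 4765 CPM in the other 3 libraries of that state. Uqcrq, a complex III subunit, was at 360 CPM in SCA1-Low-FAPs replicate 4, below 406 to 409 CPM in the others. Cox6a1 was at 668 CPM in SCA1-Low-FAPs replicate 1, above 577 to 578 CPM. Cox6a2, the muscle isoform, was at 4.94 CPM in SCA1-High-FAPs replicate 2, above 0.365 to 0.935 CPM. Atp5g1 was at 206 CPM in SCA1-High-FAPs replicate 3, above 161 to 168 CPM.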

How the results depend on the processing

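The count of called nuclear and of called mitochondrially encoded members was 0 under every scaling, filter, tool and threshold tried, and ranged from 0 to 1 each with a library left out. Of the other genes of the pathway 4 were called. That count was 2 with at least 10 counts required in every sample, a filter that Ppargc1a and Chchd10 do not pass, 1 at an adjusted p-value under 0.01, and 1 to 5 with a library left out. The median log2 fold change of the nuclear members ranged from -0.086 to -0.014 and that of the mitochondrially encoded members from -0.40 to -0.21 with a library left out, and the cause was not tested. The share of the mitochondrially encoded genes differed by -0.42 percentage points between the states, by -0.43 points with protein-coding reads as the denominator, and by -0.54 to -0.30 points with a library left out. Equal replicate numbers did not deviate together (correlations of -0.02, 0.01, -0.01 and -0.05), which does not settle whether they mark the same mouse. Each SCA1-High-FAPs library correlated most with a SCA1-Low-FAPs library of another number (1 with 2, 2 with 1, 3 with 4 and 4 with 3). The replicate block uses equal numbers, so it may not join libraries of the same mouse. With the replicate block, edgeR called 0 nuclear members, 0 mitochondrially encoded members and 4 of the other genes, and the medians were -0.07 and -0.24. For 41 named genes, 647 alternative values gave 13 lost calls, 1 gained call and no reversal of a called gene, while 19 values of genes that were not called had the opposite sign. Ndufa6 is not among these 41 genes, and it also gained a call without SCA1-Low-FAPs replicate 3 (edgeR adjusted p = 0.0310). Depth limits what can be said of the tissue isoforms with few reads.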
